A study of Mus musculus with 52 samples.

Results

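The direct comparison of all-trans retinoic acid (atRA) with RXRi, an antagonist of retinoid X receptors, was examined in mouse intestinal organoids on day 4 of culture. The libraries labelled as day 4 with atRA were set against those labelled as day 4 with RXRi, which gave 8 of the 52 libraries of the series, 4 for each drug. No measured value entered this choice.

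The organoids were grown from wild type C57BL/6 male littermates aged 8 weeks, with 2 organoid cultures. RNA was purified in duplicate from each culture after 3 wells had been pooled. The cultures received 10 µM atRA, 5 µM RXRi or the vehicle DMSO from day 0 and again on day 3, so the drugs were compared at unequal doses. On day 3 all groups, DMSO included, also changed from medium that also held Wnt3a, CHIR99021 (a GSK3 inhibitor) and Y-27632 (which blocks ROCK) to medium with EGF, Noggin and R-spondin alone, and day 4 was thus 96 hours after the first dose and followed the second. The 4 DMSO libraries of day 4 and the drug libraries of days 1, 3 and 5 were used for reference. The labels name the antagonist only as RXRi.

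Retinoic acid is made from vitamin A by alcohol and aldehyde dehydrogenases and binds the retinoic acid receptors (RARs), which act on DNA as pairs with a retinoid X receptor (RXR). RXRs are also the partners of receptors for fatty acids (PPARs), bile acids (FXR), oxysterols (LXRs), vitamin D (VDR) and xenobiotics (PXR and CAR). In the intestine these receptors regulate absorption, lipid export, bile acid transport and the inactivation of drugs and of retinoic acid itself. Intestinal organoids contain stem cells, absorptive enterocytes and secretory Paneth, goblet, enteroendocrine and tuft cells, and shortly after seeding they pass through a regenerating, fetal-like state.

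Expression was measured as RPKM (reads per kilobase of gene, scaled to the depth of the library), and a fold change is given on the log2(RPKM + 1) scale, which understates the change of low genes. The 8 drug libraries held 18510360 to 26206028 reads and 14954 to 15404 genes above 0. At these depths 3 reads in a 1 kb gene, taken as the floor, amounted to 0.114 to 0.162 RPKM. All 11 epithelial markers were present under both drugs. Their summed level was 6111 to 6497 RPKM in the atRA libraries, 7412 to 7901 in DMSO and 15363 to 16231 in RXRi, where the keratins Krt8 and Krt18 were high. Of 10 fibroblast markers only Vim passed 1 RPKM, and Col3a1, Dcn, Lum and Thy1 were at 0 in all 8 libraries. The fibroblast sum was 4.61 to 6.65 RPKM with atRA, 2.44 to 3.01 with DMSO and 0.589 to 0.993 with RXRi. Of 10 immune markers Itgam, Cd68 and Cd14 passed 1 RPKM and Cd3g was at 0, with sums of 9.97 to 13.7 with atRA, 13.1 to 18.9 with DMSO and 12.1 to 13.9 with RXRi. Of 10 endothelial, muscle and nerve markers only Acta2 passed 1 RPKM and Kdr and Sox10 were at 0, with sums of 1.55 to 2.35, 1.48 to 1.76 and 1.08 to 1.86 RPKM with atRA, DMSO and RXRi. The part of these markers in the results was not tested.

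Genes of differentiated enterocytes, of Paneth and goblet cells and of lipid and drug handling were mostly higher under atRA on day 4, and those of the fetal-like state, stratified keratinisation and the basement membrane were mostly higher under RXRi. Of 12443 genes tested, 3850 (30.9%) were higher and 3656 (29.4%) lower under atRA than under RXRi (limma, Benjamini-Hochberg adjusted p under 0.05). Of these, 1420 (11.4%) were higher and 1210 (9.72%) lower by at least 2-fold. The median gene differed by 0.02 on the log2 scale. Throughout, n = 2 cultures per group, fold changes are atRA minus RXRi unless stated, and ± after a fold change is the standard error of the fit.

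**Figure D1:**
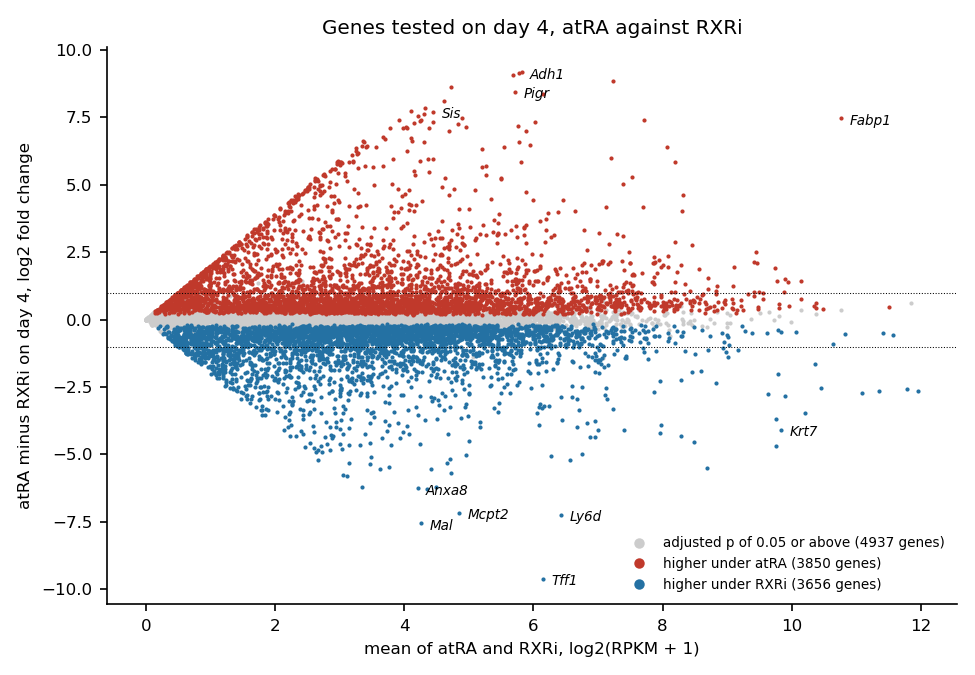
Each point is a gene of the day 4 comparison, with its mean level on log2(RPKM + 1) on the x axis and the atRA minus RXRi log2 fold change on the y axis. Red points (3850) were higher and blue points (3656) lower under atRA, grey points did not pass the test, and the dotted lines mark a 2-fold difference.

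The gene with the largest difference in favour of atRA was Adh1, an alcohol dehydrogenase that oxidises retinol among other alcohols. Its values were 1224, 1210, 1557 and 1460 RPKM in the 4 atRA libraries, 611, 661, 787 and 863 in the DMSO libraries and 1.3, 1.25, 1.44 and 1.45 in the RXRi libraries (culture 1 first). The fold change was 9.17 ± 0.31, adjusted p = 2.1e-13. Lack of overlap between the libraries of the drugs was a condition for choosing the leading genes. For Adh1, DMSO lay on the side of atRA. The apolipoproteins of chylomicrons followed. Apoa1 stood at 1204, 1147, 1444 and 1454 RPKM with atRA and at 1.41, 1.33, 1.24 and 1.25 with RXRi (9.15 ± 0.24). Apoa4 stood at 1366, 1341, 1050 and 1065 RPKM with atRA and at 1.39, 1.5, 0.837 and 1.28 with RXRi (9.06 ± 0.45). For both, DMSO was intermediate, with 390 to 471 RPKM for Apoa1 and 230 to 329 for Apoa4. On the log2 scale it was nearer to atRA (atRA minus DMSO 1.59 and 2.06, RXRi minus DMSO -7.55 and -7.01). Among the largest differences were also the dehydrogenase Adh6a (8.62 ± 0.31), the antibody transporter Pigr (8.45 ± 0.12), the galectin Lgals2 (8.36 ± 0.18), intestinal alkaline phosphatase Alpi (8.11 ± 0.17), carbamoyl phosphate synthetase Cps1 (7.84 ± 0.13), sucrase-isomaltase Sis (7.69 ± 0.22), aminopeptidase N Anpep (7.62 ± 0.23) and the cytochrome Cyp4f14 (7.54 ± 0.26). Lgals2 was the single gene among those named here whose DMSO libraries, at 1916 to 2472 RPKM, all lay above its atRA libraries, at 1235 to 1349 RPKM.

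In the other direction the leading gene was Tff1, a trefoil peptide made by surface cells of the stomach. It stood at 1.42, 0.737, 1.92 and 2.39 RPKM in the atRA libraries, 2.44, 3.37, 3.83 and 3.3 in DMSO and 2156, 2183, 1925 and 1699 in RXRi, a fold change of -9.61 ± 0.23, adjusted p = 1.8e-15. Mal, which encodes a membrane protein of apical transport, stood at 0.28, 0.444, 0.428 and 0.44 RPKM with atRA and at 270, 248, 264 and 270 with RXRi (-7.56 ± 0.19). Ly6d, a surface protein of the Ly6 family, stood at 8.66, 8.28, 4.69 and 3.81 RPKM with atRA and at 948, 979, 1172 and 1134 with RXRi (-7.23 ± 0.59). These genes were likewise chosen for lack of overlap between the drugs. DMSO lay near atRA, at 1.22 to 1.9 RPKM for Mal and 11.3 to 37.6 for Ly6d. The mast cell protease gene Mcpt2 was at 0.946 to 1.8 RPKM with atRA, 4.75 to 6.18 with DMSO and 295 to 376 with RXRi (-7.18 ± 0.23). The remaining leading genes were Psca (-6.27 ± 0.34), the annexin Anxa8 (-6.26 ± 0.26), Trim29 (-6.22 ± 0.17), the secreted inhibitor Wfdc2 (-6.19 ± 0.27), the cornified envelope genes Cnfn (-5.79 ± 0.32) and Ivl (-5.67 ± 0.28), the keratin Krt79 (-5.78 ± 0.13) and Cwh43 (-5.55 ± 0.34). In RXRi these genes reached between 50.5 RPKM, the lowest Cnfn library, and 2183 RPKM, the highest Tff1 library.

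**Figure D2:**
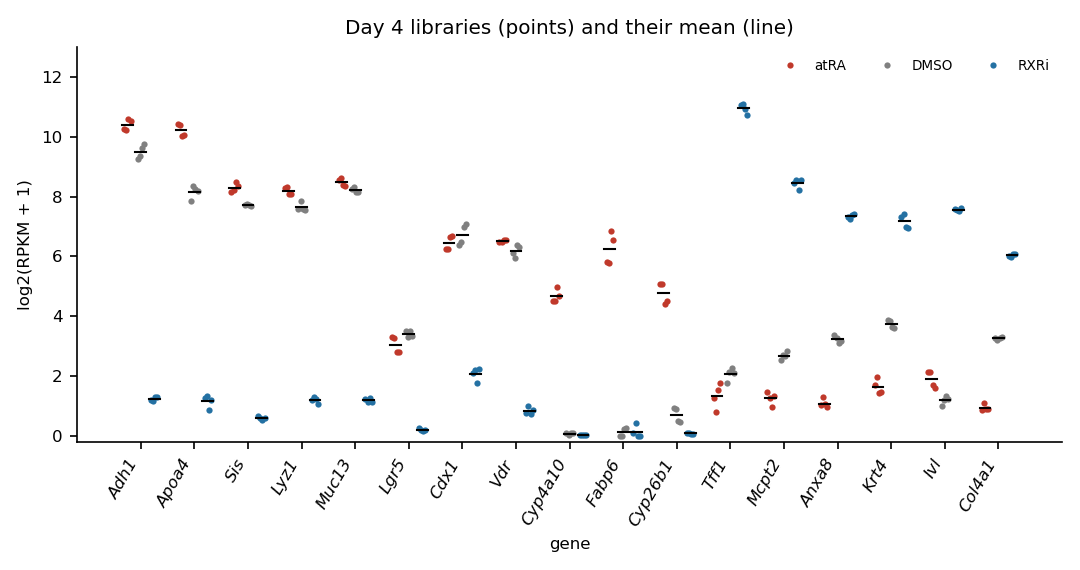
Each point is a day 4 library on log2(RPKM + 1), red for atRA, grey for DMSO and blue for RXRi, and the black lines are the means of 4 libraries. DMSO lies near atRA for Adh1, Sis, Lyz1, Muc13, Lgr5, Cdx1 and Vdr, near RXRi for Cyp4a10, Fabp6 and Cyp26b1, between the drugs for Anxa8, Krt4 and Col4a1, and far below RXRi for Tff1, Mcpt2 and Ivl.

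DMSO places these differences. Against DMSO, 446 genes (3.58%) were higher and 915 (7.35%) lower under atRA, and 2739 (22.0%) were higher and 4600 (37.0%) lower under RXRi. Both comparisons use the same DMSO libraries, so they are not independent of each other. The median gene stood at -0.12 for atRA and -0.13 for RXRi on the log2 scale, and the split of higher and lower genes moved with scaling. After median-of-ratios scaling between libraries the counts were 664 higher and 367 lower under atRA, and 3650 higher and 3701 lower under RXRi. The atRA counts were 214 and 203 without culture 2 of atRA and 246 and 285 without culture 1 of DMSO.

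**Figure D3:**
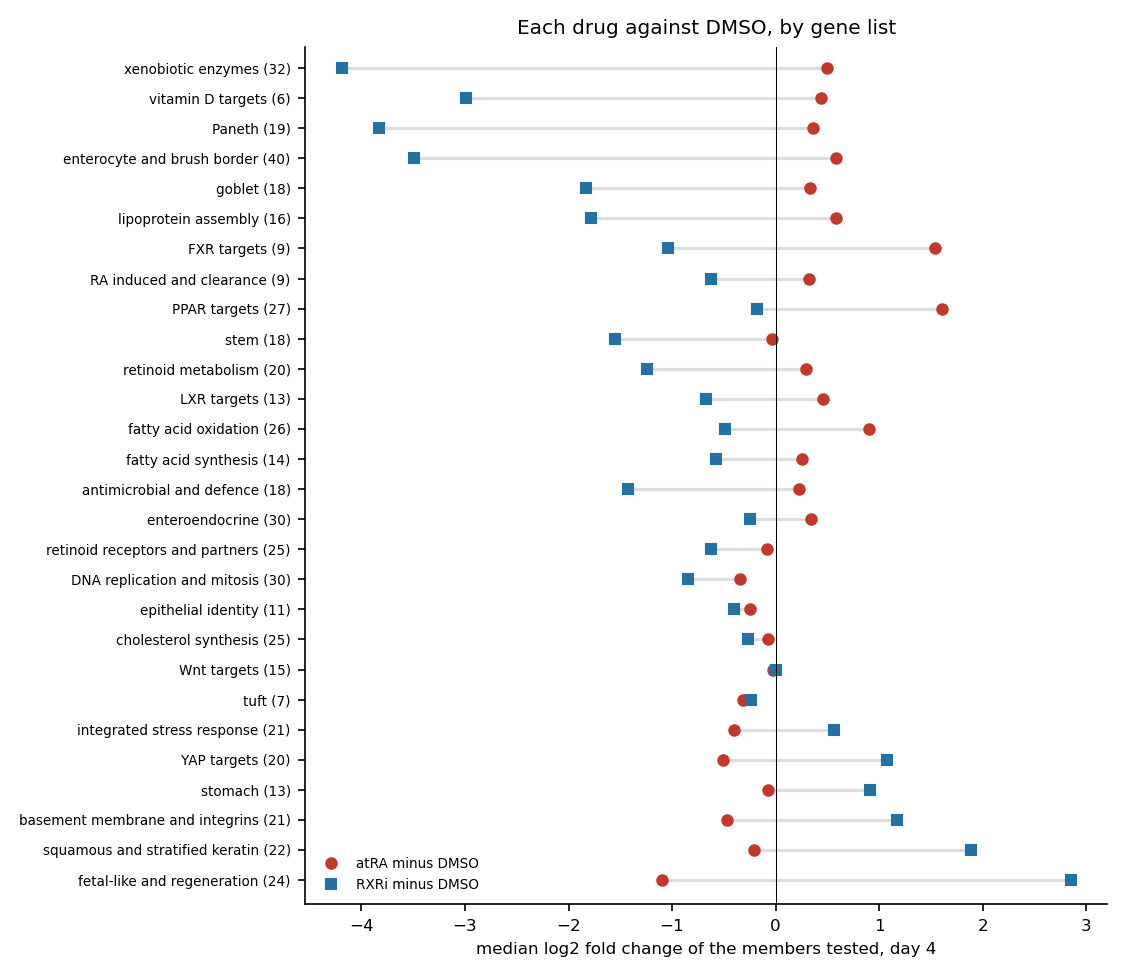
Each row is a gene list with its number of members tested, and the symbols give the median log2 fold change of atRA minus DMSO (red circles) and of RXRi minus DMSO (blue squares) on day 4. For the enterocyte list the medians are 0.58 and -3.49, for the PPAR target list 1.61 and -0.18, and for the fetal-like list -1.10 and 2.85.

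Genes that respond to retinoic acid or remove it separated the drugs. Of 20 genes known to be induced by retinoic acid or to clear it, 9 were measured well enough to test, of which 6 were higher and 3 lower under atRA (median 1.99). Isx, a transcription factor that restrains vitamin A uptake, stood at 248, 252, 239 and 240 RPKM with atRA, 118, 121, 147 and 143 with DMSO and 0.659, 0.22, 0.549 and 0.527 with RXRi (7.38 ± 0.14, adjusted p = 8.2e-17). It was above DMSO with atRA (0.89 ± 0.14) and below DMSO with RXRi (-6.48 ± 0.14). Dhrs3, which reduces retinal to retinol, ranged over 76.4 to 84.9 RPKM with atRA, 34.5 to 37.1 with DMSO and 1.75 to 2.82 with RXRi (4.66 ± 0.18). Transglutaminase 2 (Tgm2) ranged over 26.7 to 30.9, 14.4 to 16.7 and 0.159 to 0.364 RPKM in the same order (4.55 ± 0.10).

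Cyp26b1, whose enzyme breaks down retinoic acid, was low in both DMSO and RXRi. Its values were 33.1, 32.6, 20.2 and 21.8 RPKM with atRA, 0.914, 0.878, 0.415 and 0.368 with DMSO and 0.0797, 0.0744, 0.0542 and 0.0543 with RXRi (4.68 ± 0.34). Its rise over DMSO with atRA was 4.07 ± 0.34, while RXRi minus DMSO was -0.61 ± 0.34 and did not pass the test. The other 2 members of that family, Cyp26a1 and Cyp26c1, had at most 2 reads in any of the 8 libraries. Cyp26b1 and other list members outside the 4 with the smallest p of their list were chosen for naming after their values were seen.

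Genes of retinoid metabolism as a list were also mostly higher under atRA. Of 20 retinoid metabolism genes tested, 14 were higher and 3 lower (median 1.65). Besides Adh1 the higher genes included Adh4 (6.60 ± 0.22), the retinol saturase Retsat (4.75 ± 0.19), the aldehyde dehydrogenases Aldh1a1 (4.01 ± 0.30) and Aldh1a7 (3.38 ± 0.15), the carotenoid oxygenase Bco2 (4.00 ± 0.26) and the cellular retinol-binding protein Rbp2 (2.49 ± 0.44). Rdh10, which oxidises retinol to retinal, stood at 30.4 to 33.3 RPKM with atRA, 39.2 to 45.3 with DMSO and 318 to 341 with RXRi (-3.35 ± 0.19).

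Receptor genes differed less, with 17 of 25 receptors and cofactors higher and 5 lower (median 0.58). Rxra was at 20.9 to 22.1 RPKM with atRA and 12.9 to 14.9 with RXRi (0.58 ± 0.08). Rxrb was at 20 to 22.7 and 13.4 to 14.8 RPKM (0.56 ± 0.12). Rara was at 7.27 to 8.39 and 5.68 to 6.4 RPKM (0.33 ± 0.10). These 3 differences passed the test and were all under 2-fold, and that of Rara no longer passed with the shallow day 1 library kept in the fit. Rarg was at 2.89 to 4.36 RPKM with atRA and 12.3 to 13.8 with RXRi (-1.62 ± 0.23) and was thus higher under the antagonist, unlike Rara. Rarb was too low to test, with 4 to 8 reads in each atRA library (at most 0.0716 RPKM) and 0 in each RXRi library. Rxrg had at most 1 read in any of the 8 libraries. Larger differences fell on the partner receptors. Vdr stood at 88, 88.7, 93.6 and 93.6 RPKM with atRA, 68.3, 60.5, 82.6 and 78 with DMSO and 0.698, 1.01, 0.659 and 0.839 with RXRi (5.68 ± 0.10, adjusted p = 4.3e-17). The pregnane X receptor Nr1i2 (4.83 ± 0.11), Ppara (4.37 ± 0.15), the liver X receptor Nr1h3 (3.16 ± 0.42) and the constitutive androstane receptor Nr1i3 (3.08 ± 0.21) were likewise higher under atRA. Pparg (-1.83 ± 0.23) and Ppard (-1.50 ± 0.12) were lower under atRA, so the 3 PPAR genes did not move together. FXR itself (Nr1h4) differed by 0.45 ± 0.13.

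Targets of the PPARs, which drive the use of fatty acids, were mostly higher under atRA than under either DMSO or RXRi. Of 27 tested, 23 were higher under atRA and 2 lower (median 1.74). Against DMSO the median was 1.61 for atRA, with 24 members higher and 0 lower, and -0.18 for RXRi, with 4 higher and 13 lower. Cyp4a10, which hydroxylates fatty acids, stood at 22, 21.7, 30.8 and 24.4 RPKM with atRA and did not pass 0.0813 RPKM in any DMSO or RXRi library (4.64 ± 0.13, adjusted p = 1.2e-14). Pdk4, a kinase that holds back glucose oxidation, was at 15.4 to 16.7 RPKM with atRA, 0.0265 to 0.107 with DMSO and 0.317 to 0.416 with RXRi (3.64 ± 0.29). For both genes the DMSO and RXRi libraries were low. The fatty acid-binding Fabp1 was the most abundant member, with 23138, 23273, 23843 and 21801 RPKM under atRA, 2139, 2352, 2515 and 2529 under DMSO and 122, 137, 99.9 and 172 under RXRi (7.46 ± 0.36), so it moved on both sides.

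Some PPAR targets were raised by both drugs. Angptl4, a secreted inhibitor of lipoprotein lipase, was at 61.9 to 65.4 RPKM with atRA, 18.8 to 22.1 with DMSO and 114 to 129 with RXRi. It rose over DMSO by 1.61 ± 0.12 with atRA and by 2.54 ± 0.12 with RXRi, and was thus lower under atRA than under RXRi (-0.94 ± 0.12). The lipid droplet coat gene Plin2 rose over DMSO by 1.72 ± 0.20 with atRA and 1.72 ± 0.20 with RXRi, and the drugs differed by 0.00 ± 0.20. The pantetheinase Vnn1 was the other member lower under atRA (-1.34 ± 0.36). Of 26 genes of fatty acid oxidation, several of them PPAR targets as well, 24 were higher under atRA and 0 lower (median 1.37), among them Ehhadh (3.06 ± 0.11), Hadha (1.53 ± 0.07) and Bdh1 (1.78 ± 0.09). Members of the Cyp4a and Acot families are close in sequence, and how reads were divided among such copies is not given in the sources used here.

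Bile acid genes under FXR were higher with atRA in 8 of 9 tested and lower in 0 (median 2.21). Fabp6, the bile acid-binding protein of the ileum, stood at 55.3, 53.5, 115 and 91.9 RPKM with atRA, 0, 0, 0.179 and 0.206 with DMSO and 0.0828, 0.343, 0 and 0 with RXRi (6.11 ± 0.32, adjusted p = 4e-11). Only the atRA libraries held it above 0.343 RPKM, and its level in culture 2 was higher than in culture 1. The exporter subunits Slc51a and Slc51b stood at 51.7 to 71.7 and 93.3 to 113 RPKM with atRA and at 0.0265 to 0.213 and 0 to 0.0897 with RXRi (5.79 ± 0.26 and 6.62 ± 0.25). The enterokine Fgf15, which signals to the liver, was at 23.8 to 33.1 RPKM with atRA, 2.51 to 4.77 with DMSO and 0.795 to 1.28 with RXRi (3.73 ± 0.66). The corepressor Nr0b2 was at 1.92 to 3.42 RPKM with atRA, 0.074 to 0.26 with DMSO and 0 in all RXRi libraries. The uptake transporter Slc10a2 did not pass the test (-0.29 ± 0.29). With the filter raised to 5 RPKM, 5 members were higher.

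Among LXR targets 8 of 13 were higher and 2 lower (median 1.44). The sterol exporters Abcg5 and Abcg8, which form a joint transporter, were at 105 to 166 and 66.5 to 101 RPKM with atRA and at 0.17 to 0.391 and 0.135 to 0.164 RPKM with RXRi (6.68 ± 0.23 and 6.16 ± 0.19). The desaturase Scd1 was at 1087 to 1210 RPKM with atRA, 250 to 351 with DMSO and 23.1 to 31.8 with RXRi (5.29 ± 0.31), and the phospholipid-remodelling Lpcat3 differed by 1.69 ± 0.11. Apoe and Mylip, also classic targets, did not pass the test (0.64 ± 0.28 and -0.02 ± 0.08). Of 6 vitamin D targets tested, 4 were higher and 1 lower (median 4.19), the latter lost without culture 2 of atRA or culture 1 of RXRi. The calcium-binding S100g was at 188, 199, 379 and 328 RPKM with atRA, 58.3, 74.8, 75.2 and 83.9 with DMSO and 3.15, 4.53, 4.07 and 5.1 with RXRi (5.67 ± 0.26), and Vdr is itself a member of that list. Sterol synthesis moved little, with 9 of 25 genes higher and 2 lower (median 0.21). The lower count was 1 without either culture of RXRi and 4 with the replicate block. In it the reductase Dhcr7 (1.86 ± 0.12) and the sterol sensor Insig1 (1.83 ± 0.25) were higher under atRA. Of 14 fatty acid synthesis genes 8 were higher and 2 lower (median 1.24), led by Scd1, the transcription factor Mlxipl (5.14 ± 0.19) and the desaturase Fads1 (2.39 ± 0.14), while the elongase Elovl1 was lower (-1.68 ± 0.06). Without culture 2 of atRA or culture 1 of RXRi, 1 member was lower.

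Genes of absorption were nearly all higher under atRA. Of 40 enterocyte and brush border genes, 37 were higher under atRA and 1 lower, with a median of 3.97 against 0.02 over all genes tested. The hydrolase Sis stood at 284, 295, 357 and 323 RPKM with atRA, 210, 214, 208 and 206 with DMSO and 0.596, 0.523, 0.441 and 0.517 with RXRi. Alpi stood at 366, 372, 448 and 438 RPKM with atRA, 254, 255, 269 and 274 with DMSO and 0.524, 0.506, 0.456 and 0.369 with RXRi. In both genes the RXRi libraries were under 1 RPKM and far below the other groups. The sodium-glucose transporter Slc5a1 (7.39 ± 0.19), the meprin Mep1b (6.73 ± 0.14), the fructose transporter Slc2a5 (5.59 ± 0.49) and the amino acid transporter subunits Slc7a9 (5.03 ± 0.18) and Slc3a1 (5.70 ± 0.19) were higher as well. Of the structural genes of microvilli in the list, villin (Vil1) was higher by 0.51 ± 0.09, the protocadherin Cdhr2 by 1.06 ± 0.15 and Cdhr5 by 3.32 ± 0.22. Krt20 (-0.25 ± 0.30) and Eps8 (-0.08 ± 0.13) did not pass the test, and the nucleotidase Nt5e was lower (-2.49 ± 0.62). In bulk RNA, fewer cells of a type and less RNA of its genes per cell cannot be told apart.

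Promoter sequence was examined for this list, because its members moved together. RefSeq windows of GRCm38.p6, from 250 bases before to 50 after a gene's start, were found for 35 of the 40 genes (87.5%). Of 9 motifs searched on both strands, all chosen after the data were seen, the motif of hepatocyte nuclear factor 4 (CAAAGTCCA), a nuclear receptor of enterocytes and liver, matched in 5 genes. That was 11.9% of the list's 42 windows, all of tested genes, against 0.475% of all 32851 windows in the table, untested genes included. The matches of 4 genes are shown in capitals within their surroundings, in the direction of the gene, because this share stood further from that of all windows than the shares of the other motifs. The match of Pdzk1 lies after the start and is named only.
Alpi (chr1:87101592-87101650, minus strand): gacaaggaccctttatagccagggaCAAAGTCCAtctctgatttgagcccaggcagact
Cyp3a11 (chr5:145879930-145879988, minus strand): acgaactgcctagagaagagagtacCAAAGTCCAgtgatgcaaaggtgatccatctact
Treh (chr9:44673137-44673195, plus strand): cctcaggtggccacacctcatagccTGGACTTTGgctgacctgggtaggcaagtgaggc
Slc3a1 (chr17:85028283-85028341, plus strand): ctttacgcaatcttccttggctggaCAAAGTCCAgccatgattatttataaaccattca
In Treh the match is on the opposite strand and reads as the reverse complement. The fold changes were 8.11 for Alpi, 5.78 for Cyp3a11, 5.18 for Treh, 5.70 for Slc3a1 and 2.07 for Pdzk1. For the AP-1 motif TGANTCA, which reads the same on both strands, 9.52% of the list's windows and 7.81% of all windows matched. The CDX motif TTTATGG matched in 7.14% and 2.75%, and the TEAD motif CATTCC in 16.7% and 14.7%. Nuclear receptor repeats of the types DR1, DR2, DR4, DR5 and IR1 matched in 0 windows of the list and in 0.222%, 0.268%, 0.0822%, 0.0974% and 0.0365% of all windows. HNF4 and AP-1 matches overlapped in 1 window of the table. A match describes letters in these windows and not a bound site. The gene Hnf4a itself was at 242 to 264 RPKM with atRA and 132 to 154 with RXRi (0.80 ± 0.09), and its paralogue Hnf4g at 62.2 to 71.3 and 7.4 to 10.8 RPKM (2.72 ± 0.18).

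Export of dietary fat and handling of foreign compounds followed the enterocyte genes. Of 16 lipoprotein assembly genes 13 were higher under atRA and 1 lower (median 2.23). The transfer protein Mttp, which loads lipid onto apolipoprotein B, was at 628, 641, 724 and 685 RPKM with atRA, 328, 341, 353 and 353 with DMSO and 4.35, 4.14, 3.53 and 4.96 with RXRi (7.00 ± 0.17, adjusted p = 1.5e-15). Apoc2, an activator of lipoprotein lipase, differed by 7.42 ± 0.27 and the cholesterol transporter Npc1l1 by 4.58 ± 0.16, while Dgat2 was lower (-0.80 ± 0.28) beside a higher Dgat1 (3.64 ± 0.21). The Dgat2 call was lost without culture 1 of atRA and without either culture of RXRi. Of 32 xenobiotic enzymes 28 were higher and 3 lower (median 5.05). The glutathione transferase Gstm1 was at 2442 to 2521 RPKM with atRA, 825 to 1038 with DMSO and 27.3 to 29 with RXRi (6.41 ± 0.21). The cytochromes Cyp3a11 (5.78 ± 0.55) and Cyp2c55 (5.88 ± 0.20), the carboxylesterase Ces2e (7.48 ± 0.16) and the sulfotransferase Sult1b1 (5.58 ± 0.18) were among the higher ones. Cyp1a1, a target of the aryl hydrocarbon receptor, was lower, at 0.0873 to 0.711 RPKM with atRA and 6.65 to 14.6 with RXRi (-2.94 ± 0.33). Several of these enzymes have near-identical copies, which makes the single genes uncertain.

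**Figure D4:**
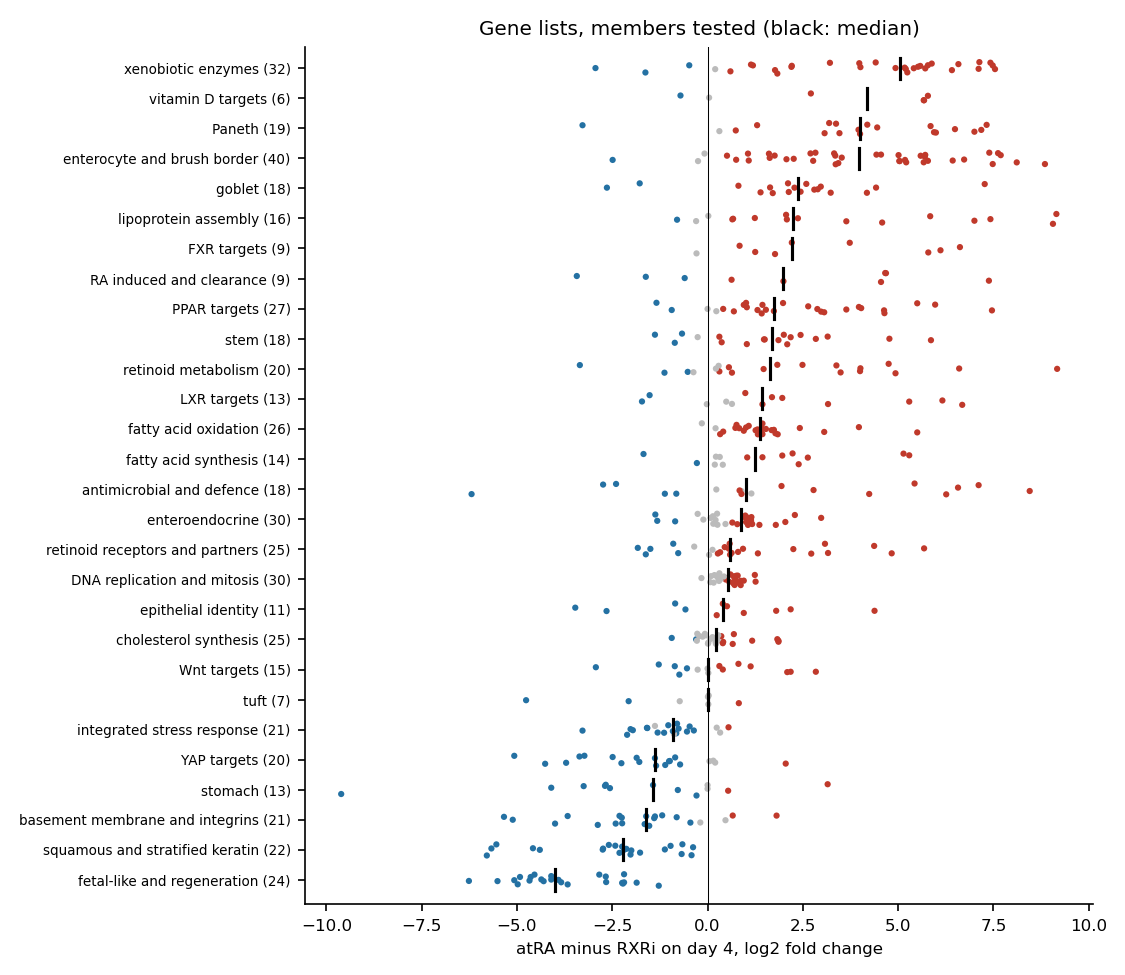
Each row is a gene list with its number of members tested, each point a member by its atRA minus RXRi log2 fold change, and the black bar the median. Red points were higher and blue points lower under atRA, and grey points did not pass the test. Medians run from -4.01 for the fetal-like list to 5.05 for the xenobiotic enzymes.

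Paneth and goblet cell genes were mostly higher under atRA. Of 19 Paneth cell genes 17 were higher and 1 lower (median 4.00). Lysozyme 1 (Lyz1) stood at 315, 318, 272 and 268 RPKM with atRA, 193, 230, 193 and 186 with DMSO and 1.3, 1.45, 1.33 and 1.1 with RXRi (7.00 ± 0.26, adjusted p = 6.4e-13). The alpha-defensins Defa17 (7.32 ± 0.28) and Defa3 (7.18 ± 0.26) and the lectin Itln1 (6.49 ± 0.21) differed by similar amounts, with the reservation that defensin genes are near-identical copies. The exception was the stress gene Nupr1 (-3.28 ± 0.41). Of 18 goblet cell genes 16 were higher and 2 lower (median 2.36). The transmembrane mucin Muc13 stood at 375, 390, 331 and 325 RPKM with atRA and 1.38, 1.21, 1.41 and 1.19 with RXRi (7.27 ± 0.12). The gel-forming mucin Muc2 was lower in level and in difference, at 21.6 to 23.7 RPKM with atRA, 3.96 to 10.5 with DMSO and 1.66 to 2.66 with RXRi (2.97 ± 0.24). Spink4 (4.18 ± 0.19), Agr2 (3.23 ± 0.16) and the fate regulators Atoh1 (2.28 ± 0.16) and Spdef (2.80 ± 0.23) were higher as well. Sytl2 (-2.64 ± 0.18) and Bcas1 (-1.78 ± 0.24) were lower.

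Enteroendocrine genes showed a mixed picture, with 17 of 30 higher, 3 lower and 10 not passing the test (median 0.87). The progenitor factor Neurog3 was at 10.1, 9.03, 9.58 and 11.1 RPKM with atRA, 5.82, 6.62, 9.84 and 8.72 with DMSO and 0.438, 0.341, 0.399 and 0.346 with RXRi (2.98 ± 0.33). The hormones glucagon (Gcg, 2.29 ± 0.28) and secretin (Sct, 2.04 ± 0.27) were higher under atRA, somatostatin (Sst, -1.32 ± 0.36) was lower, and Gip (-0.26 ± 0.25) and the granule protein Chga (0.25 ± 0.18) did not pass the test. Tuft cells were barely represented, since Dclk1 did not exceed 0.0129 RPKM and Pou2f3 0.231 RPKM in any of the 8 libraries. Of 7 tuft genes tested 1 was higher and 2 lower. The actin-binding Avil nonetheless stood at 0.144, 0.218, 0.196 and 0.138 RPKM with atRA, 1.5, 1.53, 0.528 and 0.937 with DMSO and 34.9, 32.7, 28.8 and 27.8 with RXRi (-4.76 ± 0.15), and the prostaglandin synthase Ptgs1 was lower under atRA too (-2.07 ± 0.10).

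Stem cell markers were higher under atRA in 14 of 18 genes and lower in 3 (median 1.68). Lgr5, the receptor that marks crypt base stem cells, stood at 8.94, 8.67, 5.99 and 5.92 RPKM with atRA, 10.3, 8.93, 10.5 and 9.06 with DMSO and 0.189, 0.153, 0.124 and 0.149 with RXRi (2.84 ± 0.24, adjusted p = 2e-08). Olfm4 was at 55.2 to 82.9 RPKM with atRA, 32.9 to 91 with DMSO and 0.154 to 0.175 with RXRi (5.86 ± 0.53), and Smoc2 differed by 4.77 ± 0.19. For these 3 genes atRA minus DMSO did not pass the test (-0.37 ± 0.24, 0.18 ± 0.53 and -0.38 ± 0.19). Tnfrsf19 (-1.38 ± 0.13), the ubiquitin ligase Rnf43 (-0.86 ± 0.11) and Slc12a2 (-0.67 ± 0.19) were lower under atRA. Wnt target genes did not move one way, with 7 of 15 higher and 5 lower (median 0.02). Axin2, the feedback inhibitor, was higher (2.09 ± 0.20), while cyclin D1 was lower, at 35.9, 37.1, 35.4 and 36.7 RPKM with atRA, 49, 55, 58.1 and 53.4 with DMSO and 284, 285, 286 and 275 with RXRi (-2.93 ± 0.15). With the shallow day 1 library kept in the fit the Wnt counts were 4 and 3. Against DMSO, 30 replication and mitosis genes had medians of -0.34 with atRA (0 higher, 5 lower) and -0.85 with RXRi (0 higher, 26 lower). Between the drugs, 18 of these 30 were higher under atRA and 0 lower (median 0.53). Pcna was at 110 to 146 RPKM with atRA and 46.2 to 61.7 with RXRi (1.26 ± 0.13). Mki67 was at 20.7 to 22.8 and 11.1 to 16.4 RPKM in the same order (0.71 ± 0.18). Without RXRi culture 1, 7 of these genes were higher.

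Intestinal identity genes were unequal. Of the 11 epithelial markers 7 were higher and 4 lower. Cdx1, a homeobox factor of intestinal identity, stood at 75.7, 74.7, 98.5 and 102 RPKM with atRA, 82.6, 88.2, 125 and 134 with DMSO and 3.28, 3.58, 2.44 and 3.7 with RXRi (4.38 ± 0.22, adjusted p = 2.1e-11). Its relative Cdx2 was at 117 to 121 and 31.3 to 38.3 RPKM (1.80 ± 0.12). The simple-epithelium keratins Krt8 and Krt18 were lower under atRA, with Krt18 at 273 to 457 RPKM against 3858 to 3990 with RXRi (-2.65 ± 0.19 and -3.47 ± 0.32).

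The tested markers of the fetal-like, regenerating epithelium were all higher under the antagonist. Of 30 genes listed 24 were tested, and all 24 were lower under atRA, each by at least 2-fold (median -4.01). Anxa8 stood at 1.04, 1.45, 1.09 and 0.934 RPKM with atRA, 9.3, 8.71, 7.55 and 8.04 with DMSO and 158, 152, 165 and 171 with RXRi (-6.26 ± 0.26, adjusted p = 1.5e-12). Mesothelin (Msln) ranged over 53.6 to 67.2 RPKM with atRA, 181 to 285 with DMSO and 2558 to 3008 with RXRi (-5.51 ± 0.34). Clusterin (Clu, -4.54 ± 0.26) and the keratins Krt7 (-4.10 ± 0.21) and Krt19 (-2.66 ± 0.13) were further members. Against DMSO, 14 members were lower under atRA and 23 higher under RXRi. Of 20 targets of the Hippo pathway cofactor YAP 16 were lower and 1 higher (median -1.37). The connective tissue growth factor Ccn2 was at 3.71 to 5.81 RPKM with atRA, 7.67 to 12.2 with DMSO and 60.9 to 80.3 with RXRi (-3.71 ± 0.30), Myof differed by -4.26 ± 0.34 and Ptpn14 by -1.79 ± 0.12. Nuak2 was the member higher under atRA (2.05 ± 0.15), and Gadd45b did not pass the test (0.20 ± 0.13).

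Genes of stratified, cornifying epithelia were lower under atRA in all 22 tested members, of 32 listed, with a median of -2.22. The filter could admit a member through its RXRi libraries alone, which favours this count, so it is a description. Dsg3, for example, was at 2.42 to 3.71 RPKM with RXRi and at most 0.115 with DMSO and 0.0213 with atRA. Involucrin (Ivl), a protein of the cornified envelope, stood at 3.36, 3.41, 2.22 and 2.06 RPKM with atRA, 1.01, 1.28, 1.52 and 1.34 with DMSO and 190, 185, 182 and 196 with RXRi (-5.67 ± 0.28, adjusted p = 2e-11). The keratin Krt4 was at 2.26, 2.93, 1.7 and 1.74 RPKM with atRA, 13.6, 13.2, 11.4 and 11.1 with DMSO and 160, 171, 127 and 124 with RXRi (-5.54 ± 0.35). Loricrin (Lor) differed by -4.58 ± 0.18. The basal keratins were low even under RXRi, with Krt14 at 2.6 to 3.03 RPKM and Krt5 at 0.34 to 0.993 RPKM. Trp63, the transcription factor of basal stratified cells, had at most 1 read in any of the 8 libraries.

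Of 13 stomach genes 9 were lower under atRA and 2 higher (median -1.43). The gastrokines Gkn1 and Gkn2 were at 4.88 to 5.81 and 8.23 to 10.4 RPKM with RXRi and at most 0.0722 and 0.209 RPKM with atRA (-2.56 ± 0.11 and -3.25 ± 0.13). With DMSO they reached at most 0.188 and 0.236 RPKM, so on day 4 only the RXRi libraries could carry them past the filter. The protease Ctse differed by -2.67 ± 0.19. The stomach mucin Muc5ac was at 1.48 to 1.98 RPKM with RXRi and at 0 in all atRA libraries. The stomach transcription factor Sox2 and the acid pump subunit Atp4b were at 0 in all 8 libraries, and the claudin Cldn18 reached 0.66 RPKM with RXRi.

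Basement membrane and integrin genes were lower under atRA in 17 of 21 members and higher in 2 (median -1.61). The largest differences were those of the type IV collagen chains that assemble with each other. Col4a1 stood at 0.814, 1.13, 0.855 and 0.88 RPKM with atRA, 8.58, 8.3, 8.59 and 8.9 with DMSO and 64.1, 62.1, 67.2 and 67.2 with RXRi (-5.11 ± 0.22, adjusted p = 2.1e-12). Col4a2 stood at 0.769, 0.867, 0.762 and 0.598 RPKM with atRA, 8.05, 7.07, 7.37 and 7.05 with DMSO and 68.4, 67.6, 73.4 and 69.4 with RXRi (-5.34 ± 0.22). Both were below DMSO with atRA and above it with RXRi, without overlap. These genes lie on opposite strands of chromosome 8, with starts 21 bases apart in the RefSeq windows of GRCm38.p6. The laminin chains Lama3 (-3.67 ± 0.37) and Lamb3 (-2.41 ± 0.33) were also lower under atRA, and so was the laminin receptor subunit Itgb4 (-2.31 ± 0.15). The linker Nid2 was higher under atRA (1.81 ± 0.12) while its paralogue Nid1 was lower (-2.88 ± 0.27).

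Defence genes divided. Of 18 tested 10 were higher and 5 lower (median 1.02). Pigr stood at 906, 922, 1093 and 1039 RPKM with atRA, 494, 502, 615 and 619 with DMSO and 1.96, 1.8, 1.67 and 1.88 with RXRi. The lectin Reg1 (7.11 ± 0.42) and the lymphocyte chemokine Ccl25 (6.57 ± 0.17) were higher under atRA, while Wfdc2 was lower, at 1.58, 1.99, 1.22 and 1.89 RPKM with atRA, 25.8, 24, 22.3 and 24 with DMSO and 179, 173, 226 and 196 with RXRi. Genes of the integrated stress response were lower under atRA in 16 of 21 members and higher in 1 (median -0.91), such as the amino acid transporter Slc7a5 (-1.31 ± 0.16), the serine synthesis enzyme Phgdh (-1.14 ± 0.15) and the sestrin Sesn2 (-0.82 ± 0.13). Without RXRi culture 1, 10 members were lower, and 0 were higher without either culture of atRA or without culture 2 of RXRi. Across these lists the counts stand beside backgrounds of 30.9% higher and 29.4% lower, and the lists share genes, so they are not independent. A member could also pass the filter through the libraries of a single drug, which favours a call in the direction of that drug.

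The drugs were further apart on day 4 than on day 1 in the enterocyte, Paneth, fetal-like and PPAR lists. The difference between the day 4 and the day 1 fold change passed the test for 2234 genes in favour of atRA (18.0%) and for 1975 in favour of RXRi (15.9%). For 32 of the 40 enterocyte genes this difference passed the test in favour of atRA, and for 1 in favour of RXRi. The median of the enterocyte list was 0.75 on day 1, 2.44 on day 3, 3.97 on day 4 and 3.85 on day 5. The Paneth list stood at 0.13, 2.21, 4.00 and 5.22 on the same days, and the fetal-like list at -1.11, -2.84, -4.01 and -4.39. The PPAR list stood at 0.63, 1.11, 1.74 and 1.84. Among the leading genes the contrast widened most for Apoa4, from 0.99 on day 1 through 4.51 on day 3 to 9.06 on day 4 and 9.83 on day 5 (day 4 minus day 1 8.07 ± 0.64, adjusted p = 7.5e-08). Sis went from 0.55 to 7.69 between days 1 and 4, Anpep from 0.47 to 7.62 and Apoa1 from 2.15 to 9.15. Cps1 was already apart on day 1, at 5.33, and reached 7.84 on day 4.

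In the other direction it widened most for Mcpt2, at 0.06 on day 1, -2.14 on day 3, -7.18 on day 4 and -7.96 on day 5 (day 4 minus day 1 -7.24 ± 0.32, adjusted p = 8.7e-11). Ivl went from 0.36 on day 1 and -1.23 on day 3 to -5.67 on day 4, and the fatty acid-binding Fabp5 from -0.03 and -3.09 to -5.20. Of the leading genes of this direction Anxa8 was furthest apart on day 1, at -4.53. Days 3 and 4 lie on either side of the change of medium and of the second dose, which cannot be told apart from time.

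**Figure D5:**
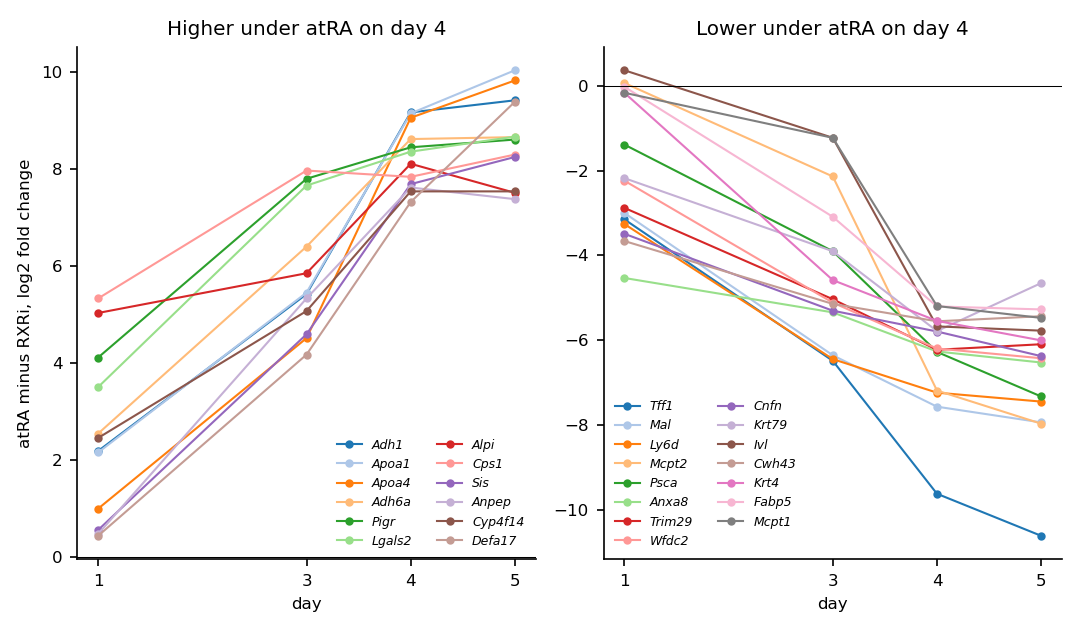
The atRA minus RXRi log2 fold change of 27 leading genes is plotted against the day of culture, for genes higher under atRA on day 4 on the left and lower on the right. Apoa4 goes from 0.99 on day 1 to 9.06 on day 4, and Mcpt2 from 0.06 to -7.18, while Anxa8 was at -4.53 on day 1.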

How the data were processed

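Total RNA of intestinal organoids was sequenced as TruSeq mRNA libraries, 52 in all. Per the submitters' processing notes, base calling used bcl2fastq 2.17 and alignment used STAR 2.5.2b with mm10, while how reads were counted, and whether by strand, is not given in the sources used here. The authors deposited RPKM per gene in 1 table of 24116 genes. The values corresponded to whole reads within 0.001 read for all 19708 genes above 0, which gave each library's depth, and whole reads were used in 1 alternative.

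Libraries were grouped by their titles, and the prep number in a title was read as the culture, since the labels' protocols describe 2 cultures of littermates for all conditions. Both duplicates of each culture were averaged as log2(RPKM + 1), so n = 2 cultures per group. A day 1 DMSO library of 12443 reads was left out, and the other 51 held 12895667 to 26206028. Of 24116 genes, 12443 reached 1 RPKM in at least 4 libraries, a number that equals those reads by coincidence. limma 3.58.1 in R 4.3.3 (trend, robust) was fitted to 26 culture means of 13 groups, with 13 residual degrees of freedom, two-sided tests and Benjamini-Hochberg adjustment over all genes tested at 0.05. The procedure was tested on simulated data.

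Named genes were the 12 largest changes each way without overlap between the drugs (predicted models, pseudogenes and small RNA genes left out), up to 4 members of each list with the smallest p, all RAR and RXR genes, and the 6 largest day 4 minus day 1 differences each way. The members, lists and rules were chosen with earlier results of these data known. The 2-fold call, the motifs and the fits without a DMSO culture were added after the data were seen, as were further genes named from the lists. A motif comparison over the genes at least 2-fold higher or lower is void, because 78.2% and 76.7% of them had a window, under the 80% required.

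No pair of libraries was identical. Chi-square per degree of freedom was 1.98 and 2.76 between duplicates of a culture with atRA, and 28.5 to 31.1 between cultures. With RXRi it was 3.93 and 9.82 between duplicates and 8.62 to 14.8 between cultures, so there the ranges overlapped. The values cover 4 pairs of duplicates and 8 pairs between cultures. The alternatives were other pseudocounts, filters, scaling and groups, a replicate block, limma-voom on whole reads and leaving out each culture. Read floors cover counting error only. RefSeq names and GRCm38.p6 promoter windows came from reference tables, and 12428 of the tested genes matched. The results of some genes are not reported here.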

Additional observations from a re-analysis of the deposited data

Results flagged for a closer look

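The atRA minus RXRi fold change differed between day 4 and day 1 in all 27 leading genes reported, by the limma test of the difference itself (Benjamini-Hochberg adjusted p under 0.05). On the log2 scale, day 4 minus day 1 was as follows for brush border, lipid and metabolic genes and a Paneth cell defensin that were higher under atRA on day 4: Apoa4 8.07, Sis 7.15, Anpep 7.15, Apoa1 7.00, Adh1 6.99, Defa17 6.89, Adh6a 6.08, Cyp4f14 5.09, Lgals2 4.86, Pigr 4.34, Alpi 3.09 and Cps1 2.51. For the genes lower under atRA on day 4 it was as follows: Mcpt2 -7.24, Tff1 -6.46, Ivl -6.03, Krt4 -5.37, Fabp5 -5.17, Mcpt1 -5.02, Psca -4.89, Mal -4.56, Ly6d -3.97, Wfdc2 -3.95, Krt79 -3.59, Trim29 -3.35, Cnfn -2.30, Cwh43 -1.89 and Anxa8 -1.73. The 27 were chosen for a large day 4 contrast, which enters this difference, or for the difference itself. Their count was thus favoured by the choice and is a description. Over all genes tested the difference passed for 18.0% in favour of atRA and 15.9% in favour of RXRi.

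A library stood far from the other 3 of its group in 1 of 54 groups examined. This library was an atRA library of Mal, at 0.28 RPKM, far from the range of RXRi. By chance the rule flags about 1 in 20 groups of independent libraries. The libraries of a group included duplicates of the same culture and were not independent, so that rate need not hold here. The count is thus a description.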

How the results depend on the processing

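With the shallow day 1 DMSO library kept in the fit, 4654 genes were called between atRA and RXRi on day 4, 263 between atRA and DMSO, 4296 between RXRi and DMSO, and 1902 in the day 4 minus day 1 difference. With the groups compared alone, 811 genes were called between atRA and DMSO. Requiring a 2-fold difference left 2630 genes between the drugs. Leaving out 1 culture gave 6380 to 6718 genes between the drugs, 417 to 956 between atRA and DMSO, 6105 to 6814 between RXRi and DMSO and 3405 to 3760 in the day difference. A lone culture was then assumed to vary like the other groups. The labels number the cultures alike in every group but tie no number to an animal. Same-numbered cultures deviated from their group means with a correlation of 0.286 between the day 4 drugs, and over 78 pairs of groups the median was 0.149 (-0.317 to 0.759), with 47 above 0.1. With the culture number as a replicate block, 7800 genes were called between the drugs, 1715 between atRA and DMSO, 7682 between RXRi and DMSO and 4578 in the day difference. Of 133 named genes tested, 125 kept direction and side of the threshold in every alternative, and 4 more did so wherever they were run, having no value under the filter of 5 RPKM. The block brought Ltc4s (-0.73) and Cd68 (-1.07) past the threshold and ended no call of a named gene, and Bub1b and Rara lost theirs with the shallow library kept. No direction reversed. The cause of these shifts was not tested. With 2 cultures per group, small differences are not resolved, and a missed threshold does not show that genes were alike.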

Other observations

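Mcpt2 and Mcpt1, named for mast cell proteases, were among the leading genes that were higher under RXRi than under atRA. Other mast cell genes were chosen for comparison after these values were seen. Mcpt1 stood at 35.9 to 39.6 RPKM with RXRi, 0.223 to 0.784 with DMSO and at most 0.128 with atRA (log2 fold change of atRA minus RXRi -5.19 ± 0.13, SE, n = 2 cultures). Mcpt4 stood at 2.82 to 4.51 RPKM with RXRi, 0.416 to 0.904 with DMSO and 0.0445 to 0.147 with atRA (-2.02 ± 0.18). Both were higher under RXRi, as was Mcpt2. Carboxypeptidase A3 (Cpa3) and the IgE receptor subunits Fcer1a and Ms4a2, which define mast cells, were at 0 in all libraries of the 3 groups. The tryptases Tpsb2 and Tpsab1 did not exceed 0.106 RPKM in any of them, and the chymase Cma1 ranged from 0.113 to 0.482 RPKM with RXRi. Kit, the stem cell factor receptor of mast cells, was lower with RXRi, at 0.218 to 0.262 RPKM against 2.51 to 2.83 with atRA (1.55 ± 0.18). Mcpt genes are close copies of each other, so their single values are uncertain.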
